A study of Mus musculus with 40 samples.

Results

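Emcn and 9 other genes that are widely used as markers of endothelial cells were followed, 10 of the 24062 genes of the count table. Members were chosen by symbol: Emcn because its count was lower in every Sall2 KO library than in the WT library in both treatments, and Pecam1, Cdh5, Kdr, Tek, Tie1, Flt1, Eng, Esam and Vwf in order to ask whether other endothelial markers follow it. The KO to WT values of Emcn are therefore a description and were not tested. The RNA came from early-passage primary fibroblasts of mouse embryos (MEFs) taken at 13.5 dpc (days post coitum), and the labels give all groups, the controls included, a mixed C57BL/6J-129P2OlaHsd strain, a mixture that can differ from embryo to embryo. The Sall2 allele was targeted in 129P2-derived embryonic stem cells, so 129P2 DNA linked to it can come with it into Het and KO, and it is carried through the germline, so it is absent or present in all cells of an embryo and not in 1 cell type alone. WT, Het and KO cultures were left untreated (control) or received 1 µM doxorubicin, a topoisomerase II poison that breaks DNA, for 16 h. Control libraries came from 1 WT, 1 Het and 3 KO embryos, and doxorubicin libraries from 1 WT, 1 Het and 2 KO embryos, because the column of KO embryo 3 with doxorubicin held the same count as that of KO embryo 2 for 24062 of 24062 genes and was left out. With 1 WT embryo, a KO to WT difference cannot be told apart from a difference of that embryo or culture or from one of strain DNA. By counts of Xist and of Y-linked genes, WT, Het and KO embryo 2 were female and KO embryos 1 and 3 male. Xist had 5913 counts in WT control, and 3, 5997 and 31 in KO control embryos 1, 2 and 3. Sex was not a term in any fit.

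Endothelial cells line blood vessels, and the members stand for different parts of their surface. VEGF binds the receptor tyrosine kinases that Kdr and Flt1 encode, angiopoietins bind the one that Tek encodes, with Tie1 as its partner, and Eng encodes endoglin, a co-receptor for TGF-beta and BMP ligands. Cdh5, Pecam1 and Esam encode adhesion proteins of the junctions between the cells, Vwf encodes the clotting protein von Willebrand factor, and Emcn encodes endomucin, a sialomucin on the surface of capillary and venous endothelium. Fibroblast cultures are not endothelium, although several of these genes (Eng, Flt1 and Kdr among them) are also read in other cell types. In RNA from a whole culture, fewer cells of a type and less RNA per cell cannot be told apart.

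The promoters of Emcn, Flt1 and Eng are shown because these were the 3 members with the most RNA per length in the control cultures, and Emcn alone of the 3 was lower in every KO library. Each sequence runs 5′ to 3′ on the strand of the gene, from 250 bases before to 50 bases after the transcript start in RefSeq on GRCm38.p6, and capitals mark GGAA or its reverse complement TTCC, the core letters bound by ETS factors such as Erg and Fli1.
Emcn (chr3:137340828-137341127, plus strand): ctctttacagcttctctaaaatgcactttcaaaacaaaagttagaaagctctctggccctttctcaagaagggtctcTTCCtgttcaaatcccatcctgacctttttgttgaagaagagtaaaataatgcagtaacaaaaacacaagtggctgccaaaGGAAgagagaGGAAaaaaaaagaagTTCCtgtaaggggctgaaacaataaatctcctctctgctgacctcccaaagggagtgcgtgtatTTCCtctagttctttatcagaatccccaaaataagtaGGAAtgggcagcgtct
Flt1 (chr5:147725962-147726261, minus strand): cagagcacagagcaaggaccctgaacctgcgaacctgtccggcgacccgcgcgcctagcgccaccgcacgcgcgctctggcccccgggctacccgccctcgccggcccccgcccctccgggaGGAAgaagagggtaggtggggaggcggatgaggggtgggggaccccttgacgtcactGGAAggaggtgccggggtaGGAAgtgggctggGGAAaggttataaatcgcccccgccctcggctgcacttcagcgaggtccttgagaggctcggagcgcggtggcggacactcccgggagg
Eng (chr2:32646345-32646644, plus strand): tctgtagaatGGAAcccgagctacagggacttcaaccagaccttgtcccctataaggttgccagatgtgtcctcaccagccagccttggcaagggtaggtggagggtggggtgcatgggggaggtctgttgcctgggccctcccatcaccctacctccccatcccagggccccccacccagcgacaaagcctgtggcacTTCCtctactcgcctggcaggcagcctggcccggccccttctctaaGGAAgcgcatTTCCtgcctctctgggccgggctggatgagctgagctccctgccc
The Emcn promoter held 6 of these matches, and 15.7% of the 32851 promoters of 300 bases held at least as many. The promoters of Flt1 and Eng held 4 each, and 46.3% of promoters held at least as many. Of all promoters, 96% held at least 1. Kdr held 5, Tek 2 and Tie1 9. Sequences were found for 6 of the 10 members; those of Pecam1, Cdh5, Esam and Vwf are not shown. A match of 4 letters is a description and not a binding site.

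Totals lay between 15560728 and 24122414 counts per library, and 3 counts corresponded to between 0.123 and 0.168 CPM (each count relative to its library's TMM-adjusted total). Counts of Sall2 itself were 388, 432 and 424 in KO embryos 1, 2 and 3 against 756 in WT control (ratios of 0.529, 0.644 and 0.505), and 76 and 81 in KO embryos 1 and 2 against 188 in WT with doxorubicin. Totals per gene do not show which exons these reads came from. The Het control, Het doxorubicin and KO embryo 3 control libraries stood apart from the other 6 libraries. Their 10 fibroblast markers summed to between 16700 and 22750 CPM against 48430 to 98720 CPM elsewhere, and their 11 blood and macrophage markers, of which none was at 0 in any library, to between 520.3 and 789.3 CPM against 118.3 to 230.6 CPM. In the 2 control libraries among them, 10 interferon-response genes summed to 2172 and 2373 CPM against 45.7 to 63.3 CPM in the other 3. For the members and several gene lists, the counts of genes changed with doxorubicin are given with and without these libraries. Other results include them unless stated.

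The cultures did not carry the full profile of endothelium: several of its markers were close to 0, while other endothelial genes were read. Cdh5, the gene of VE-cadherin (chromosome 8, 104101625 to 104144511, on GRCm38 as are all positions of genes here), had 1 to 10 counts in the 5 control libraries and 8 to 21 in the 4 doxorubicin libraries, and Tie1 had 0 or 1 count in control and 1 to 3 with doxorubicin. Cldn5, the claudin of endothelial tight junctions, had 0 or 1 count in every control library. All 10 members together made up 81.6 to 253.1 CPM in control. Per length of exon (CPM divided by kb of merged exons in GENCODE M21), the median over the control libraries was highest for Eng, at 14.3 CPM per kb, followed by Flt1 at 7.20, Emcn at 2.26, Kdr at 0.557, Tek at 0.1585, Esam at 0.0695, Cdh5 at 0.0534, Vwf at 0.0248, Pecam1 at 0.0180 and Tie1 at 0.00912. Eng and Flt1 overlapped over the libraries (7.25 to 18.7 and 2.38 to 11.8 CPM per kb), and so did Flt1 and Emcn (1.86 to 7.50), whereas every control library had more Emcn than Kdr (0.234 to 0.768) per length. Below Kdr, each gene overlapped with the next. With doxorubicin the medians were 14.6 CPM per kb for Eng, 7.03 for Flt1, 3.59 for Emcn, 1.39 for Esam, 1.04 for Kdr and 0.832 for Pecam1, with the other 4 below. Of the members, fibroblast cultures thus held RNA of the shared receptors and of Emcn, and traces of the junction genes. Endothelial genes outside the members ranged as widely in control. Thbd had a median of 2452 counts, S1pr1 of 846 and Cd34 of 329, while Robo4 and Mmrn1 had a median of 0.

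Emcn lies on the plus strand of chromosome 3, between 137341067 and 137432185 on GRCm38, and no exon of another annotated gene overlaps its exons. The WT control library held 814 counts of Emcn, the Het one 299, and those of KO embryos 1, 2 and 3 held 196, 204 and 303. In normalised terms WT control stood at 40.5 CPM and Het control at 12.25 CPM, and the mean of the KO controls was 11.7 CPM ± 1.78 (SD, n = 3). The doxorubicin libraries held 1484 counts (WT), 350 (Het), 339 (KO embryo 1) and 436 (KO embryo 2). That was 73.8 CPM for WT and 16.95 CPM for Het, against a KO mean of 19.4 CPM ± 0.818 (SD, n = 2). The WT library was the highest of its treatment both times, and the Het library lay within or just below the KO libraries.

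**Figure D1:**
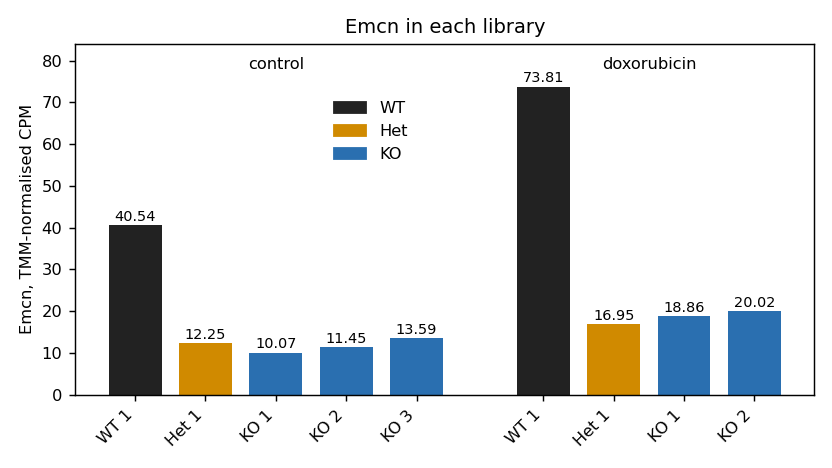
Emcn in the 9 libraries in TMM-normalised CPM, 1 bar per library, with the value above it and colour for the genotype. WT stands at 40.54 CPM in control and 73.81 CPM with doxorubicin, and no Het or KO library exceeds 20.02 CPM.

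Relative to the WT library of the same treatment, Emcn in control was at 0.248 (95% interval 0.211 to 0.291) in KO embryo 1, 0.282 (0.241 to 0.330) in embryo 2 and 0.335 (0.293 to 0.383) in embryo 3. With doxorubicin the ratio was 0.256 (0.226 to 0.288) in embryo 1 and 0.271 (0.243 to 0.302) in embryo 2. These are exact binomial intervals on the counts of a library pair and cover counting error only, not the spread between embryos. The ratio was highest in KO embryo 3, which stood apart from the other KO cultures in fibroblast and interferon genes. Emcn was chosen for being lower in every KO library, so the shared side of these ratios is no support. On the log2 scale the fitted difference was -1.76 (SE 0.338) in control and -1.93 (SE 0.193) with doxorubicin. Without KO embryo 3 it was -1.90 in control. With plain CPM in place of TMM factors, the control log2 differences were -2.02, -1.83 and -1.02 in KO embryos 1, 2 and 3. How near embryo 3 lay to the other KO embryos thus depended on the scaling.

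Other genes met the same criterion often. Of 13864 genes with at least 1 CPM on average, 981 (7.08%) were below WT in every KO library in both treatments, and 678 (4.89%) were above. Emcn is 1 of the 981 by the way it was chosen.

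The Het cultures were not used to choose Emcn. Their ratios, however, are to the same WT libraries that the choice used, so they are not independent of it. The Het level of Emcn was 0.302 of WT (0.264 to 0.345) in control and 0.230 (0.204 to 0.258) with doxorubicin, within or below the range of the KO ratios. For comparison, Sall2 in Het (587 and 164 counts) was at 0.639 of WT (0.572 to 0.712) in control and at 0.849 (0.685 to 1.05) with doxorubicin, and with plain CPM its log2 difference was -0.06 and 0.26. Each genotype has 1 library here, so the difference was not tested. Both Het libraries are among those that stood apart, and part of the size depends on scaling: on the log2 scale the Emcn difference was -1.72 in control and -2.12 with doxorubicin with TMM, and -1.14 and -1.62 with plain CPM. Het was below WT in both treatments for 40.3% of the genes with at least 1 CPM and for 71.8% of the 981 genes that were below WT in every KO library.

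The nearest genes read on each side of Emcn did not share its pattern in the KO libraries. Its 3 nearest neighbours on each side with at least 1 CPM were taken from the annotation, a choice made after the data were seen. Ddit4l, at 189.4 kb to the right, was at 0.841, 1.01 and 1.90 of WT in the KO control embryos 1, 2 and 3 and at 1.05 and 1.32 with doxorubicin. Ppp3ca, the catalytic subunit of calcineurin at 403.3 kb to the left, was at 0.872, 1.03 and 0.563 in control and at 0.840 and 0.950 with doxorubicin. Over Nfkb1, Slc39a8, Ppp3ca, Ddit4l, H2afz and Dnajb14, the lowest ratio in a KO library was 0.466, for Dnajb14 in KO embryo 3. Slc39a8 and Nfkb1 lay as far as 1452 and 1650 kb away. In Het, Ppp3ca (0.66 and 0.60) and Dnajb14 (0.51 and 0.59) were below WT in control and with doxorubicin. Nfkb1, Ddit4l and H2afz were above WT in both, and Slc39a8 in control only.

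Of the 9 other members, 0 were below WT in every KO library in both treatments and 0 were above, where 7.08% and 4.89% of the genes with at least 1 CPM were. Cdh5 and Tie1 were under 1 CPM on average, so these shares do not cover them. With shares that low, a count of 0 among 9 says little about the members. In the fits across all genes (edgeR quasi-likelihood test, two-sided, Benjamini-Hochberg adjustment, false discovery rate (FDR) under 0.01), 0 of the 7 other members with enough counts passed for KO against WT in control, where 0% of 14470 genes passed and 10 (0.0691%) reached an unadjusted p under 0.05. DESeq2 also called 0 genes there, with 94 at an unadjusted p under 0.05. With doxorubicin 0 of the 8 other members tested passed, where 0.197% of 15256 genes did (0.118% higher, 0.0787% lower), and 2.84% had an unadjusted p under 0.05. Their fitted log2 fold changes had a median of 0.26 in control and 0.20 with doxorubicin, against 0.04 and 0.01 over all genes tested, and 6 of 7 and 7 of 8 were above 0, as were 54.1% and 51.7% of all genes. In control, a spread estimated from 3 KO libraries leaves wide errors. With doxorubicin, 2 KO libraries and 1 WT library say little of each gene's own spread. The spread used there came almost wholly from the trend over all genes. Smaller differences were thus not detectable.

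**Figure D2:**
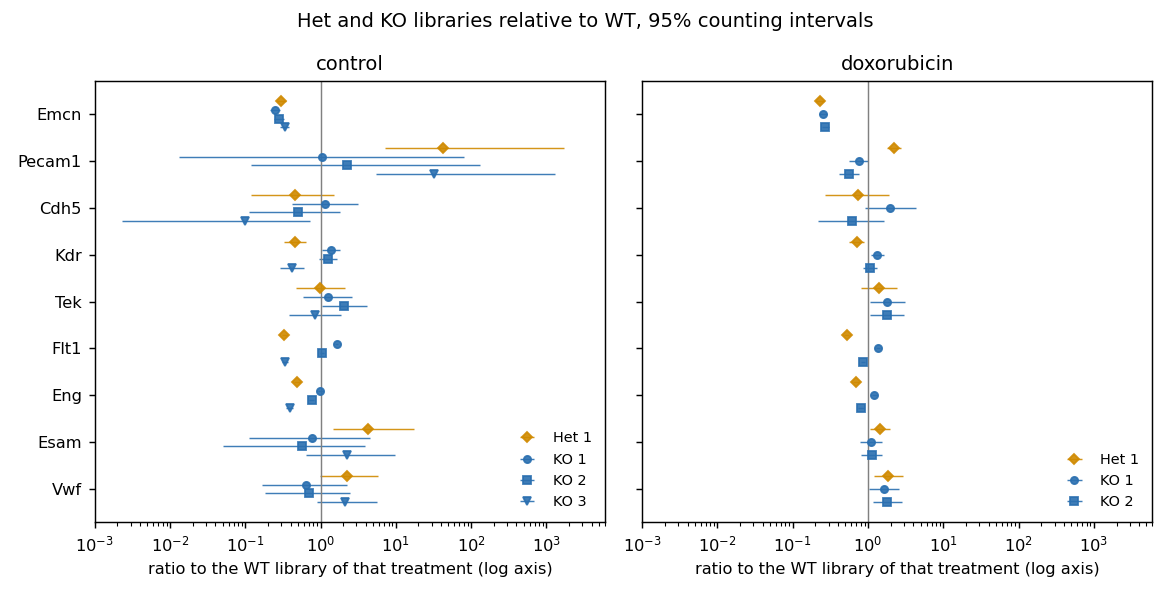
Ratio of each Het and KO library to the WT library of its treatment for 9 members (log axis, bars are 95% counting intervals; Tie1, with 0 to 3 counts, is left out). Emcn lies left of 1 in all 7 libraries, from 0.230 to 0.335, and no other member lies on 1 side in all of them.

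Among the VEGF receptors, Flt1 (chromosome 5, 147561604 to 147726011) was read at 3090, 1814 and 733 counts in KO control embryos 1, 2 and 3, with 1953 in WT and 783 in Het. With doxorubicin KO embryos 1 and 2 gave 2514 and 1908 counts, WT 2056 and Het 1100. WT lay inside the range of the KO libraries both times, and the log2 difference of KO from WT was 0.03 (SE 0.858, adjusted p = 1.00) in control and 0.15 (SE 0.216, adjusted p = 1) with doxorubicin. The 2 lowest values were those of Het and of KO embryo 3 in control. Kdr (chromosome 5, 75932827 to 75978458), the main signalling receptor for VEGF, had 101, 56, 135, 112 and 47 counts in WT, Het and KO 1 to 3 in control, and 183, 133, 218 and 211 in WT, Het and KO 1 and 2 with doxorubicin. Again Het and KO embryo 3 were lowest, and KO embryos 1 and 2 were above WT, at 1.38 and 1.25 of it in control.

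Eng (chromosome 2, 32646595 to 32682669) was read at 1470, 1033 and 654 counts in KO control embryos 1, 2 and 3, with 1522 in WT and 901 in Het, and at 1419 and 1146 in KO embryos 1 and 2 under doxorubicin, with 1314 in WT and 939 in Het. It was at 0.996, 0.765 and 0.387 of WT in the KO control embryos, and its log2 fold change was -0.46 (SE 0.557, adjusted p = 1.00). The lowest KO value was again that of the embryo 3 culture, and with doxorubicin the KO libraries lay on both sides of WT, at 1.21 and 0.805. Exons of Eng share 61 bases with Fpgs on the other strand, and since the strand setting of the counting is not given in the sources used here, reads of that stretch may belong to either gene.

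The angiopoietin receptor Tek (chromosome 4, 94739289 to 94874976) was weakly read, with 15, 18, 18, 27 and 14 counts in WT, Het and KO 1 to 3 in control and 25, 36, 40 and 48 in WT, Het and KO 1 and 2 with doxorubicin. Both KO libraries with doxorubicin were above WT, at 1.79 and 1.77, and KO embryo 3 in control was below it. The log2 fold change was 0.47 (SE 0.940) in control and 0.82 (SE 0.476, adjusted p = 1) with doxorubicin. For Tie1 (chromosome 4, 118471191 to 118490061), at or under 3 counts in every library, no ratio can be given.

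The junction genes Pecam1 (chromosome 11, 106654217 to 106750628) and Esam (chromosome 9, 37528078 to 37538319), and Vwf (chromosome 6, 125546774 to 125686679), shared another split. Pecam1, also known as CD31, had 1 count in WT control, 1 and 2 in KO embryos 1 and 2, but 51 in Het and 36 in KO embryo 3. Esam had 4, 3 and 2 counts in WT and KO embryos 1 and 2 against 21 and 10, and Vwf 8, 5 and 5 against 22 and 19. All 3 were thus highest in the 2 control libraries with high interferon and blood markers, as were 35.9% of the genes with at least 1 CPM. Pecam1 is also made by leukocytes and platelets and Vwf by megakaryocytes, and Ptprc, the pan-leukocyte marker CD45, had 995 counts in Het control and 416 in KO embryo 3 control against 47 to 98 in the other 3. The part of blood cells in these values was not tested. With doxorubicin, Pecam1 was at 80 and 73 counts in KO embryos 1 and 2, 119 in WT and 270 in Het, a KO to WT log2 fold change of -0.61 (SE 0.328, adjusted p = 1).

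Whether the KO to WT difference of a member depended on treatment was asked with an interaction term over the WT and KO libraries. It passed for 0 of the 8 other members tested and for 0% of 15905 genes, of which 41 reached an unadjusted p under 0.05; DESeq2 called 0 as well, with 24 under that p. The term was above 0 for 6 of those 8 members and for 49.3% of all genes. For Emcn, whose KO and WT values had served to choose it, the term was -0.14 on the log2 scale (SE 0.409) and is given with no test.

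Doxorubicin was the comparison that the choice of Emcn did not use. Treated cultures had more RNA of Emcn, Esam and Vwf: 3 of the 9 members tested passed, all higher, where 40.6% of 16656 genes passed and 21.9% passed as higher. The median log2 fold change of the 9 was 1.13 against 0.02 over all genes tested, and 9 of 9 were above 0, as were 50.6% of all genes. With the embryo as a block, 5 of 9 passed (Pecam1 and Kdr were added), where 30% of genes passed as higher. The block takes KO embryo 3, which has a control library only, out of this comparison. Leaving that library out with no block also gave 5 of 9. Without the Het libraries and KO embryo 3 control, an alternative chosen after the data were seen, the same count of 5 was reached, where 35.1% of genes passed as higher. DESeq2 called 6 of 9, where it called 27.1% of genes as higher. In the KO libraries alone only Esam passed, of 8 members tested, where 8.06% of genes passed as higher. The members' share thus moved with the method, from 1 of 8 to 6 of 9, and nothing particular to the list is read from it.

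Emcn rose 1.63-fold (log2 0.70, SE 0.153, adjusted p = 0.00426, edgeR quasi-likelihood test). Within an embryo, doxorubicin to control ratios were 1.82 (1.67 to 1.99) for WT, 1.38 (1.18 to 1.62) for Het, 1.87 (1.57 to 2.25) for KO embryo 1 and 1.75 (1.48 to 2.07) for KO embryo 2, higher in 4 of 4 embryos. The WT control library remained above every Het and KO library with doxorubicin. The call was lost when any 1 of the WT, KO embryo 1 or KO embryo 2 libraries was left out, in either treatment (adjusted p from 0.0106 to 0.0305), in KO alone (0.0643) and with plain CPM (0.0273), while the log2 fold change stayed between 0.65 and 0.86 in all alternatives tried.

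Esam had the largest tested change among the members that passed, 12.5-fold (log2 3.64, SE 0.455, adjusted p = 0.00024). It went from 4 to 72 counts in WT, 21 to 106 in Het, 3 to 71 in KO embryo 1 and 2 to 87 in KO embryo 2, and every doxorubicin library was above every control library. Vwf went from 8 to 33 counts in WT, 22 to 63 in Het, 5 to 48 in KO embryo 1 and 5 to 64 in KO embryo 2 (log2 2.26, SE 0.42, adjusted p = 0.00196), again with no overlap. Without the KO embryo 2 doxorubicin library its adjusted p was 0.0117. Pecam1 also showed no overlap, with 1 to 51 counts in control and 73 to 270 with doxorubicin, but the spread of its control libraries left it short of the threshold (log2 3.20, SE 0.886, adjusted p = 0.0139). In WT it went from 1 to 119 counts, a ratio of 118.8 (20.9 to 4733), and without the Het libraries and KO embryo 3 control its log2 fold change was 5.90 (adjusted p = 6.75e-07). For 24.8% of the genes tested, all 4 doxorubicin libraries were above all 5 control libraries. Among the 3715 genes under 1 CPM on average in control, which include these 3 genes, that share was 55.8%, and 48.7% passed as higher.

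**Figure D3:**
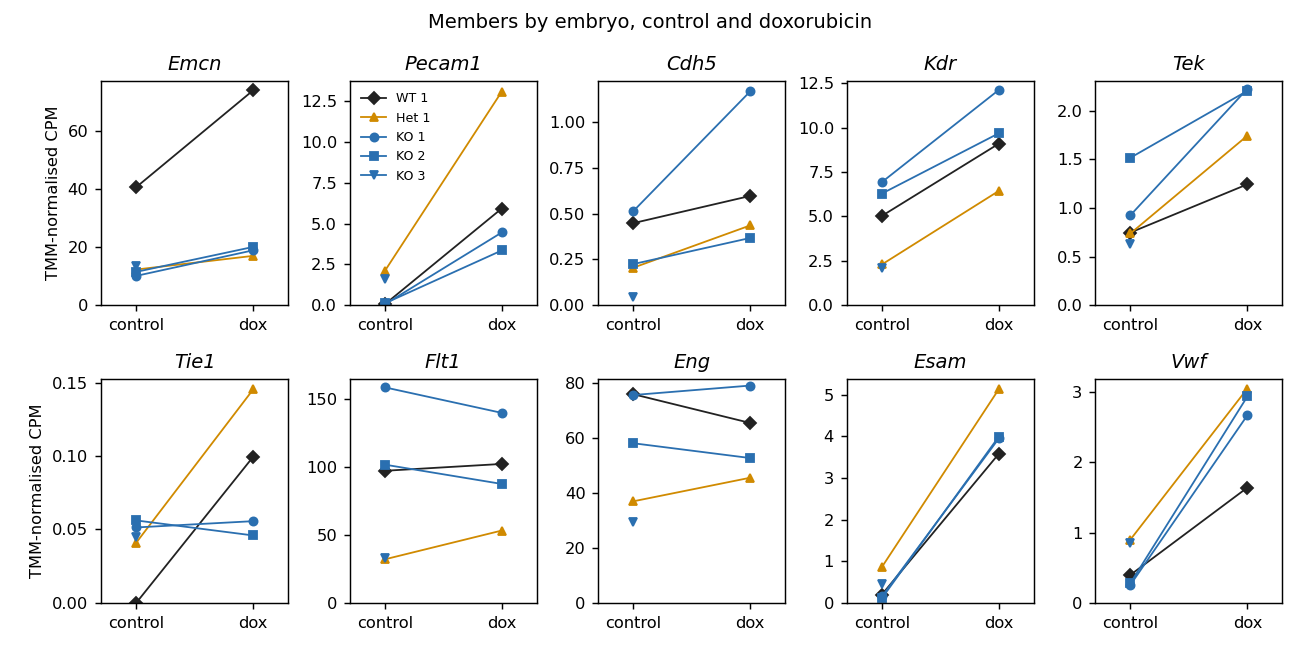
Members in control and doxorubicin in TMM-normalised CPM, 1 line per embryo (KO embryo 3 has a control point only), each panel with its own axis from 0. Pecam1, Esam, Vwf and Emcn are higher with doxorubicin in 4 of 4 embryos, with the Emcn line of WT above those of Het and KO, and Flt1 and Eng overlap between treatments.

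Kdr and Tek were higher with doxorubicin in 4 of 4 embryos without passing the threshold. Kdr had a log2 fold change of 1.13 (SE 0.347, adjusted p = 0.0220), with embryo ratios of 1.81 (WT), 2.81 (Het), 1.75 (KO embryo 1) and 1.54 (KO embryo 2). The value for Tek was 1.06 (SE 0.342, adjusted p = 0.0267). Flt1 (log2 0.30, SE 0.395, adjusted p = 0.544) and Eng (0.17, SE 0.272, adjusted p = 0.615), the members with the most RNA per length, overlapped between treatments. Without the libraries that stood apart, their values were -0.12 and -0.09, so no direction can be given. Cdh5 (1.17, SE 0.633, adjusted p = 0.147) stayed at 21 counts or fewer in every library.

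The wider set of endothelial genes was read from lists of known members, chosen with earlier results of these data in view. For KO against WT, 0 genes of any list passed in control, where 112 genes that are no member were tested, and 1 of 121 passed with doxorubicin, beside 0.197% of all genes: Mmrn2, a matrix protein of the endothelial surface, with 317 and 230 counts in KO embryos 1 and 2 against 83 in WT and 80 in Het (log2 1.76, SE 0.306, adjusted p = 1.11e-05). The SE came almost wholly from the trend over all genes and not from the spread of Mmrn2 between embryos. Both KO libraries were above WT, the other side from Emcn. This is a comparison with a single WT library, and 0 genes passed when either KO library was left out or in the fit of all 9 libraries.

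For doxorubicin, the counts of each list that follow stand beside 21.9% of all genes passing as higher and 18.7% as lower (30% and 26.9% with the embryo as a block, 35.1% and 31.4% without the libraries that stood apart). Of 14 endothelial transcription factors tested, 10 rose, 1 fell and 3 did not pass, and their median log2 fold change was 2.60 against 0.02 for all genes. Among them Sox7, Sox17, Sox18 and Tal1 were under 1 CPM on average in control, a class of genes of which 48.7% passed as higher. The Sox factors that specify arterial and lymphatic endothelium were nearly unread in control: Sox17 had 0 or 1 count in the 5 control libraries and 38 to 58 with doxorubicin, and Sox18 had 0 to 4 and then 81 to 141 (adjusted p = 3.94e-05 and 8.49e-05). Lmo2, a partner of Tal1 in blood and vessel progenitors, went from 11 to 98 counts in control to 246 to 425 with doxorubicin. Hey1, a Notch target, went from 99 to 297 to between 734 and 1213. Foxc2 fell (log2 -1.32, adjusted p = 0.00119), and the ETS factors Erg (0.41, adjusted p = 0.518) and Fli1 (0.05, adjusted p = 0.869) did not pass. The counts were 10 higher and 1 lower also without the libraries that stood apart, and 7 higher in KO alone.

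Of 30 other endothelial surface proteins and enzymes tested, 8 rose, 2 fell and 20 did not pass, with a median of 0.48, shares near those of all genes for the higher ones. With the embryo as a block 9 were higher and 5 lower, without the libraries that stood apart 8 were higher and 6 lower of 27 with a median of 0.15, and in KO alone 3 of 25 were higher with a median of -0.003. Procr, the endothelial protein C receptor, had 304 to 577 counts in control and 2005 to 3333 with doxorubicin (log2 2.70, adjusted p = 1.68e-05). Cldn5 had 0 or 1 count and then 12 to 33, and Mmrn2 4 to 14 and then 80 to 317. Calcrl, a receptor for adrenomedullin, fell (log2 -1.66, adjusted p = 0.000741). Thbd, the thrombomodulin gene, had 645 to 2862 counts in control and 601 to 2118 with doxorubicin (log2 -0.20, adjusted p = 0.646). Without the libraries that stood apart, its value was -0.58 (adjusted p = 0.000654, edgeR quasi-likelihood test).

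The ligands and partners of the members were mixed. Hey1, Hey2, Prox1, Acvrl1, Cd34 and Podxl each stand in more than 1 list. Of 10 VEGF and angiopoietin ligands and co-receptors, 2 rose, 0 fell and 8 did not pass, near the share of all genes for the higher ones, and with the embryo as a block 4 rose and 3 fell. Those that rose were both ligands of Tek, Angpt2 with 145 to 258 counts in control and 466 to 719 with doxorubicin (log2 1.66, adjusted p = 0.000382) and Angpt4 (1.24, adjusted p = 0.000592), whereas Angpt1, which activates Tek, had a value of -1.25 (adjusted p = 0.0193). Without the libraries that stood apart, Angpt1 was at -1.41 (adjusted p = 8.15e-05, edgeR quasi-likelihood test). Among 8 TGF-beta and BMP genes around endoglin, 0 rose and 2 fell, the latter near the share of all genes: Acvrl1, the endothelial type I receptor (log2 -1.09, adjusted p = 0.00222), and Tgfbr3 (-0.97, adjusted p = 0.00557), and with the block 2 rose and 5 fell. Of 10 Notch and ephrin genes, 4 rose (Dll4, Jag2, Hey1 and Hey2), 3 fell (Jag1, Ephb4 and Unc5b), and 3 did not pass, beside 21.9% of all genes higher and 18.7% lower. With the block 5 rose and 4 fell, and without the libraries that stood apart 4 rose and 4 fell. Dll4, the ligand of endothelial tip cells, had 0 to 4 counts in control and 149 to 208 with doxorubicin, and Jag2 5 to 52 and then 935 to 2159. Of the 7 sialomucins related to endomucin, 1 rose, Podxl2 (1.22, adjusted p = 0.00171), and Cd34 did not pass (0.61, adjusted p = 0.252); with the block 2 rose.

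**Figure D4:**
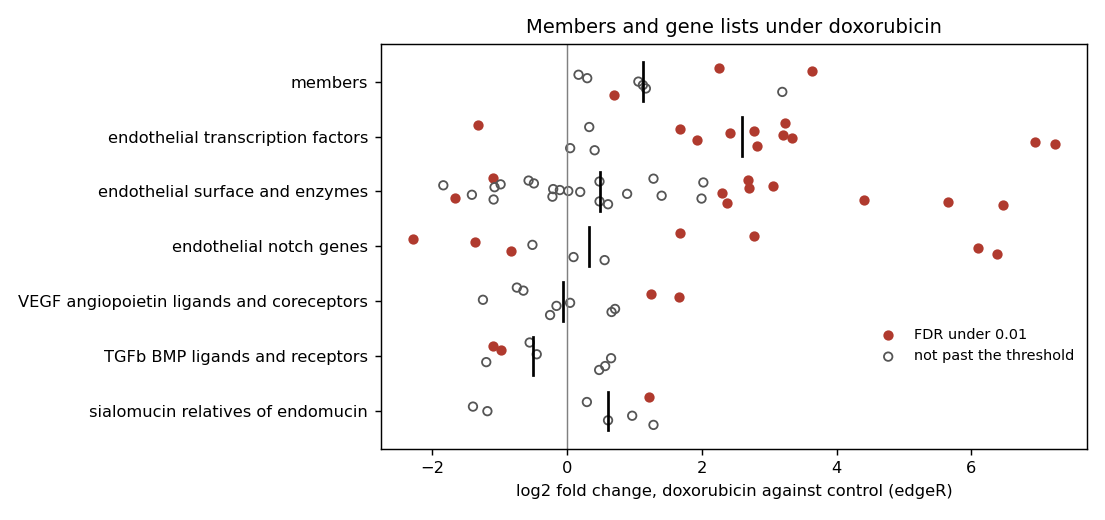
Log2 fold change of doxorubicin against control for each tested gene of the members and of 6 lists, filled where the FDR was under 0.01, with the list's median as a black bar. The transcription factors have the highest median, 2.60, and the members one of 1.13, while the TGF-beta and BMP genes have a median of -0.50.

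Markers of other cell types were counted against the same shares. Of 7 epithelial and mesothelial genes tested, 3 rose (Epcam, Krt19 and Wt1) and 1 fell (Krt18), and of 11 blood and macrophage genes 2 rose (Cd68 and Itga2b) and 2 fell (Csf1r and Runx1), the blood counts being at or just below the shares of all genes. Of 10 mural cell genes, 1 rose (Notch3) and 1 fell (Pdgfrb), 1 of 4 lymphatic genes rose (Prox1), and 0 of 10 fibroblast and 0 of 10 interferon genes passed. With the embryo as a block, 2 mural genes were higher and 4 lower, 2 lymphatic genes were higher, 1 fibroblast gene was higher and 2 lower, and 2 interferon genes were higher. Summed CPM of the fibroblast list was 16700 to 98720 in control and 22750 to 60870 with doxorubicin, and that of the blood list 163.3 to 702.5 and 118.3 to 789.3. Without the libraries that stood apart, 4 fibroblast genes were lower and 10 interferon genes higher. Their part in the changes of the members was not tested.

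The pattern of Emcn over the 9 libraries was compared with that of each of 13863 other genes with at least 1 CPM on average, as the root mean square difference of centred log2 CPM. Closest were Peli2 (0.470), Ncoa4 (0.544), Tmem260 (0.565), Sprr1a (0.565) and Hoxc9 (0.569). The paper places Tmem260 in the region introgressed with Sall2 and reports that its expression depended on genotype in both treatments. Whether the other close genes lie in that region was not looked up here. Peli2, a ubiquitin ligase of the Pellino family, had 63, 83 and 41 counts in KO control against 173 in WT and 58 in Het, and 77 and 101 in KO with doxorubicin against 246 in WT and 115 in Het. The other members lay farther from it, members under 1 CPM being given the place they would take, from place 1776 for Eng (0.836) to place 13473 for Pecam1 (2.27). All points share the same 9 libraries and their scaling, and closeness in this measure says nothing of shared control.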

How the data were processed

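Count tables were deposited by the authors as raw counts per gene, 1 column per library and 24062 genes. Per the methods and labels, the authors merged 4 sequencing runs per library, aligned reads to mm10 with HISAT2 (2.1.0 in the submitters' processing notes, another version in the methods) and counted them with HTSeq in union mode; the strand setting is not given in the sources used here. Here, edgeR 4.0.16 (R 4.3.3) quasi-likelihood tests with TMM factors, filterByExpr and Benjamini-Hochberg adjustment over all genes tested were used at an FDR under 0.01. KO was compared with WT in each treatment, doxorubicin with control over 9 libraries with genotype as a term, and the interaction over WT and KO. The self-test on simulated counts was run before the fits. The labels give the same embryo number in both treatments, which pairs the cultures, and over 13864 genes the difference between KO embryos 1 and 2 correlated between treatments (r = 0.476). The main doxorubicin fit did not use this pairing between KO embryos. The fit with the embryo as a block did, and it called 9486 genes for doxorubicin against 6760. KO embryo 3 has a control library only, so the block also takes that library out of the treatment contrast. Leaving it out with no block called 9770 genes. The rise can therefore not be credited to the pairing. Library ratios used TMM CPM with exact binomial intervals at 95%, and log2 CPM a prior count of 2. Depth was 15560728 to 24122414 counts per library, with 1 WT and 1 Het culture per treatment. In general the p-values rest on the spread between embryo cultures, moderated over genes. For KO against WT with doxorubicin, 1 degree of freedom per gene was left. The spread used there came almost wholly from the trend over all genes, not from the embryos of each gene. The KO embryo 3 doxorubicin column was identical to that of KO embryo 2 and was counted once as embryo 2, since its Xist count (4163) was near that of KO embryo 2 control (5997) and not of KO embryo 3 control (31). Alternatives were DESeq2 1.42.0, no low-count filter, leaving out Rn45s, an FDR under 0.05, the edgeR exact test with and without 1 RUVg factor, 1 fit of all libraries, the embryo as a block, KO libraries alone, each library left out and, added after the data were seen, plain CPM in the fits and leaving out the Het libraries with KO embryo 3 control. Named genes are the 10 members, list genes described by role, the 5 genes most like Emcn, and the neighbours of Emcn, which were chosen after the data were seen. The members and lists were chosen with earlier results of these data known.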

Additional observations from a re-analysis of the deposited data

Results flagged for a closer look

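For Flt1 the values of the WT embryo and of the KO embryos lay on opposite sides of 0: its log2 ratio of doxorubicin to control was 0.072 in WT and -0.182 and -0.217 in KO embryos 1 and 2. The interval of the WT ratio includes 1 (0.988 to 1.12), Het was at 0.73, and with plain CPM the split was absent, at 0.25 in WT and -0.017 and 0.072 in KO embryos 1 and 2. That split of signs is not itself a test, and the interaction term for Flt1 was 0.14 on the log2 scale (SE 1.16, adjusted p = 1, edgeR quasi-likelihood test). No other member showed such a split.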

How the results depend on the processing

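In every alternative run, 0 members besides Emcn, which was not tested there, passed for KO against WT in control, for KO against WT with doxorubicin and for the interaction, and Emcn kept its side of WT (log2 -1.56 to -1.90 in control, -1.882 to -1.996 with doxorubicin). The count of members passing for doxorubicin, 3 in the report, was 6 with DESeq2, 6 at an FDR under 0.05, 5 with the embryo as a replicate block, 5 without the Het libraries and KO embryo 3 control, 1 in KO alone, and 1 to 5 when 1 library was left out, with 1 without KO embryo 2 doxorubicin and 5 without KO embryo 3 control. With plain CPM, 1 other member (Tek), against 0, was above WT in every KO library, and the Het to WT difference of Emcn was -1.135 in control and -1.623 with doxorubicin; plain CPM moved the median of all genes for KO against WT in control from 0.04 to 0.21. Signs turned for differences that never passed: Vwf for KO against WT in control was -0.139 with RUVg, and under the replicate block the interaction was -0.141 for Kdr, -0.275 for Flt1 and 0.698 for Esam, but the block changed no other call than those given for doxorubicin. For doxorubicin, Flt1 was -0.115 and Eng -0.093 without the Het libraries and KO embryo 3 control. With 1 library left out, KO against WT in control ranged from -0.241 to 0.411 for Kdr and -0.509 to 0.439 for Flt1, and with doxorubicin from -0.692 to 0.934 for Cdh5, -0.223 to 0.424 for Flt1 and -0.313 to 0.245 for Eng. The interaction ranged from -0.16 to 0.524 for Kdr, -0.298 to 0.682 for Flt1 and -0.453 to 0.678 for Esam, and the doxorubicin value reached 0.58 for Flt1 and 0.318 for Eng without KO embryo 1 control. The causes were not tested. Over all genes, calls for KO against WT in control were 163 with RUVg and 47 and 41 without KO embryo 1 or 2, against 0, and with doxorubicin 46 at an FDR under 0.05, 16 with plain CPM, 5 with DESeq2 and 0 in the fit of all libraries or without KO embryo 1 or 2, against 30. For doxorubicin against control they were 1911 in KO alone, 10281 without the libraries that stood apart and 4322 to 9770 with 1 library left out, against 6760, and for the interaction 8 with the block, against 0. Leaving out a KO doxorubicin library leaves 1 in its group, which is then assumed to vary like the other groups. Depth limits Cdh5, Tie1 and, in control, Pecam1, Esam and Vwf, which had 10 or fewer counts in at least 3 libraries.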
